A study of Mus musculus with 6 samples.

Results

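The 10 genes described here encode noncollagen components of the extracellular matrix: the small leucine-rich proteoglycans lumican (Lum), decorin (Dcn) and biglycan (Bgn), the elastic fibre proteins fibrillin-1 (Fbn1) and elastin (Eln), fibronectin (Fn1), and the matricellular glycoproteins tenascin-C (Tnc), SPARC (Sparc), thrombospondin-1 (Thbs1) and thrombospondin-2 (Thbs2). They were chosen by gene symbol, and all 10 were found among the 17975 genes of the expression table. RNA was sequenced from whole mouse liver, 1 liver per mouse, in 2 groups of 3 mice. Hom mice are homozygous hepatocyte Nek7 knockouts, NEK7 fl/fl with Alb-Cre(+): the albumin promoter drives Cre in hepatocytes, so stromal, endothelial and blood cells of the liver keep an intact Nek7. The other group is labelled WT, and which of the alleles used in the breeding (NEK7 fl/fl alone or Alb-Cre alone) each WT mouse carried is not given in the sources used here. Neither is the age or sex of each mouse. The floxed and Cre lines are on a C57BL/6 background, and no mouse was labelled as treated.

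Matrix proteoglycans and glycoproteins fill the space between collagen fibrils. Small leucine-rich proteoglycans bind the surface of collagen fibrils and limit how the fibrils fuse, and decorin and biglycan also bind TGF-beta. Fibrillin forms microfibrils on which elastin is laid down, fibronectin is the scaffold on which cells assemble new matrix, and matricellular proteins regulate how cells adhere to that matrix while adding little to its structure. In the liver most of these genes are expressed by stellate cells and portal fibroblasts, which become myofibroblasts in fibrosis. Fibronectin is the exception, because hepatocytes also secrete the plasma form of the protein into blood. Here the question was how the RNA of each gene differed between Hom livers, in a mouse line studied for spontaneous liver fibrosis, and WT livers.

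Libraries were of nearly equal depth, with 19349418 to 19730236 estimated counts each, and no pair was alike within sampling noise (within a group, chi-square divided by its degrees of freedom was 22.3 to 152). Over all genes, WT replicate 1 was the WT liver farthest from the others (134 and 152), and WT replicates 2 and 3 were the closest pair. Nek7 was at 62.9, 69.1 and 63.7 CPM (read counts scaled to library size with TMM factors, which correct for library composition) in WT replicates 1, 2 and 3 and at 14.5, 18.1 and 16.7 in Hom replicates 1, 2 and 3, so every Hom liver carried the labelled loss. In 1 set of genes WT replicate 3 stood apart from the other livers. Its summed level of 10 epidermal keratinocyte genes (keratins, filaggrin and cornified envelope genes, chosen after the data were seen) was 848 CPM, against 35.6 and 57.3 in the other WT livers, 157 in Hom replicate 1 and 35.2 and 42.5 in the other Hom livers. Among WT livers Eln, Tnc and Thbs1 were also highest in WT replicate 3, so values are given below without it, and without it and Hom replicate 1 together. Hom replicate 1 also differed from the other 5 livers in its Y-linked genes, with 0 counts of Ddx3y and Kdm5d, 4 of Eif2s3y and 149 of Uty, against at least 243 of each in every other liver.

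Sequence upstream of the start is shown for the 3 members whose tabulated promoter window (250 bases before the start, RefSeq, build GRCm38.p6) holds no annotated exon. Windows were tabulated for 5 of the 10 members. The sequences are given 5′ to 3′ on the strand of the gene, in lower case, with motif matches on either strand in capitals. The Bgn window lies at chrX:73483351-73483600 on the plus strand, the Thbs2 window at chr17:14694263-14694512 on the minus strand and the Tnc window at chr4:64047016-64047265 on the minus strand. The motifs searched were SP1 (GGGCGG), AP-1 (TGANTCA), TEAD (GGAATG), SMAD (GTCTAGAC), the TATA box (TATAAA) and CArG.

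Bgn: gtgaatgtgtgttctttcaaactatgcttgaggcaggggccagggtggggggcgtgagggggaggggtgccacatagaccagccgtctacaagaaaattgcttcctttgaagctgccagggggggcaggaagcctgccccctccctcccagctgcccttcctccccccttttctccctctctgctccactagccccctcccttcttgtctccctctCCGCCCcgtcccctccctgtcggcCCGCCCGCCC

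Thbs2: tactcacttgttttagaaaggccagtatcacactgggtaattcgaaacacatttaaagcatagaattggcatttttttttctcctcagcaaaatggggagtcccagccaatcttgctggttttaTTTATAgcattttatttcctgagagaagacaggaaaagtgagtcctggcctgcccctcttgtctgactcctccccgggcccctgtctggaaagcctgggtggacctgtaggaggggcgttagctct

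Tnc: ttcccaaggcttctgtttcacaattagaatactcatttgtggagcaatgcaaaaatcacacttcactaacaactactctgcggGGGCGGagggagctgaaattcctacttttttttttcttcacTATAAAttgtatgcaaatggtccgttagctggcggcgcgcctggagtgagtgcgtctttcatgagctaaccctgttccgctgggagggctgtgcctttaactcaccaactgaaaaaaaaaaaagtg

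The Bgn window was GC-rich (64.4%, against a median of 52.4% over all 32851 windows) and held 3 SP1 matches, of which the last 2 overlap each other. Thbs2 (GC 46.8%) held 1 TATA match, which lies on the reverse strand, and Tnc (GC 44.8%) held 1 SP1 and 1 TATA match. Over all windows, 32.7% held an SP1 match and 12.4% a TATA match. No AP-1, TEAD, SMAD or CArG match was present in these 3 windows; 6.75%, 12.6%, 0.167% and 1.47% of all windows hold one. The matches are letters in a window and were not related to the expression values.

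Of the 10 genes, all of which passed the filter on low counts, 7 were higher in Hom livers and none was lower when p-values of the edgeR quasi-likelihood test, adjusted by the Benjamini-Hochberg method over 13805 genes, were held to a threshold of 0.05. Each adjusted p given below is of this kind unless another tool is named, and SE is the standard error of a log2 fold change. Over all tested genes 21.5% were higher and 20.1% lower. The 7 were Lum, Bgn, Fbn1, Eln, Sparc, Thbs1 and Thbs2, each by a log2 fold change of at least 1, and 13.2% of all tested genes met both the threshold and this size. Dcn, Fn1 and Tnc did not pass the test. Over the 10 genes the log2 fold changes had a median of 1.35, against 0.00 (-0.0018) over all tested genes. For 8 genes every Hom liver lay above every WT liver, an order found in 28.7% of all tested genes, and for Dcn and Fn1 the groups overlapped. Without WT replicate 3 and Hom replicate 1, 8 were higher, 0 lower, and the median was 1.80. In whole-liver RNA, more cells that express a gene and more RNA per cell cannot be told apart.

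**Figure D1:**
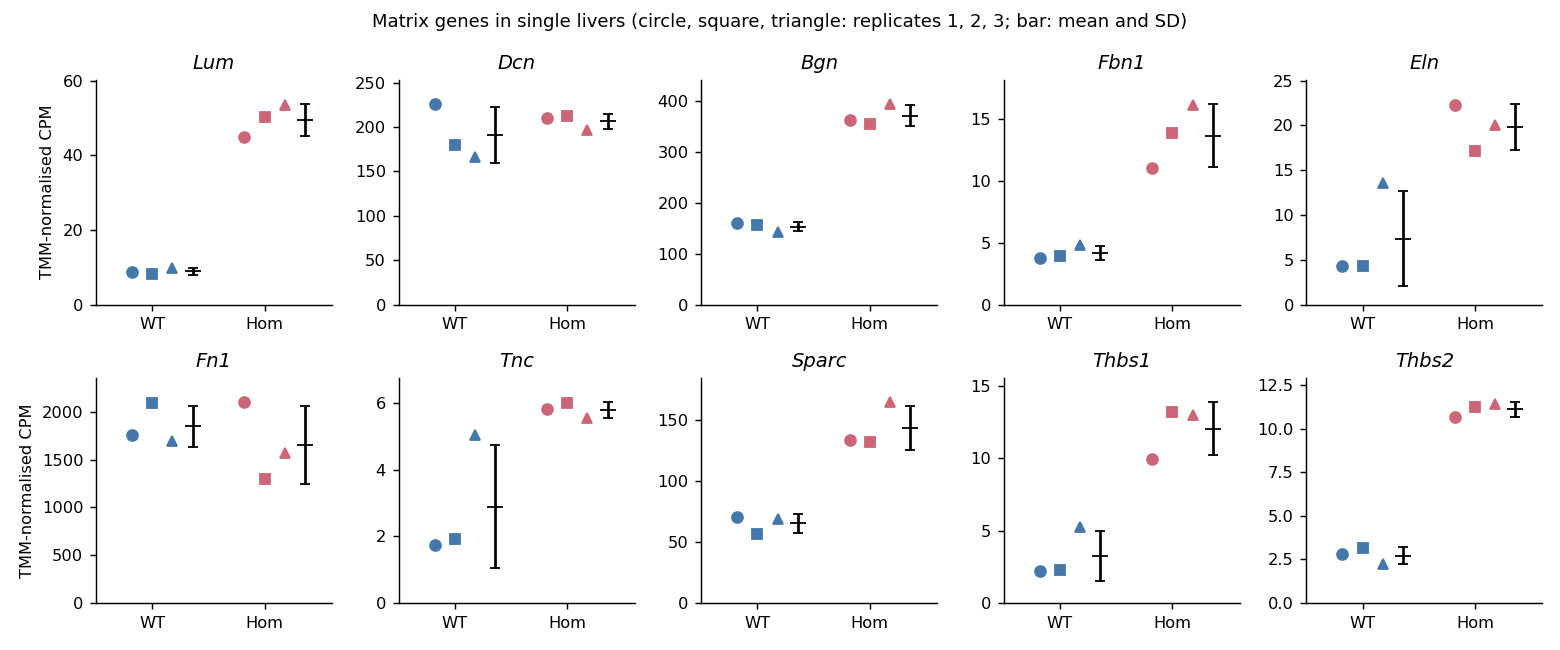
TMM-normalised CPM (vertical axes, from 0) of the 10 matrix genes in each WT (blue) and Hom (red) liver, with the mean and SD of 3 livers beside the points. The Hom points of Lum lie between 45.0 and 53.5 CPM and those of WT between 8.08 and 9.77, whereas the groups of Dcn and Fn1 overlap, and the WT replicate 3 triangle lies above the other WT points for Eln, Tnc and Thbs1.

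Lumican, which binds collagen fibrils through its leucine-rich core and carries keratan sulfate chains in some tissues, showed the largest fold change of the 10 genes over the 6 livers. Lum (NCBI Gene 17022, chromosome 10) was at 8.82, 8.08 and 9.77 CPM in WT replicates 1, 2 and 3 and at 45.0, 50.3 and 53.5 CPM in Hom replicates 1, 2 and 3. The lowest Hom liver lay more than 4 times above the highest WT liver. The group means were 8.89 ± 0.846 CPM (SD, n = 3 mice) and 49.6 ± 4.25 (SD, n = 3 mice), a ratio of 5.58. The log2 fold change was 2.48 (SE 0.11, edgeR adjusted p = 1.07e-04), and 3.39% of tested genes had a higher one.

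Biglycan is a proteoglycan of the same family that carries chondroitin or dermatan sulfate and, in soluble form, is a ligand of the innate receptors TLR2 and TLR4. Bgn (chromosome X) was at 159, 156 and 143 CPM in the WT livers and at 363, 355 and 394 CPM in the Hom livers. These groups were 2.42-fold apart in their means, with no overlap (log2 fold change 1.28, SE 0.098, edgeR adjusted p = 3.75e-04). None of the 6 deposited Bgn counts was a whole number, as happens when reads that match more than 1 place are shared out by estimate, so its level is less certain than that of Lum, whose counts were all whole.

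Decorin, the closest relative of biglycan among the 3 and the most abundant of them in WT livers, did not pass the test. Dcn (chromosome 10) was at 226, 179 and 166 CPM in the WT livers and at 210, 212 and 197 CPM in the Hom livers. The Hom values lay inside the WT range. The means were 190 ± 31.5 and 206 ± 8.28 CPM (SD, n = 3 mice each), a log2 fold change of 0.12 (SE 0.13, edgeR adjusted p = 0.506). With libraries scaled by their totals alone, which moves the median of all tested genes to 0.45, Dcn was at 0.56 and passed the threshold (adjusted p = 0.0293), or 0.11 relative to that median. Dcn lies directly beside Lum on chromosome 10, with no other protein-coding gene between them in GRCm38, and the next protein-coding gene on the other side of Lum is Kera, another member of the family.

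Levels of different genes can be compared within a liver after division by gene length, in TPM (transcript abundance per length, set to the same total in every liver), and a ratio of this kind does not depend on how libraries are scaled. The ratio of Lum to Dcn in TPM was 0.0352, 0.0406 and 0.0528 in the WT livers and 0.191, 0.213 and 0.244 in the Hom livers. All Hom ratios lay above all WT ratios, a log2 difference of 2.35 (p = 0.1 by a two-sided exact permutation over livers, which is the lowest value that 3 against 3 can give). Bgn to Dcn was 0.542, 0.670 and 0.661 in WT and 1.31, 1.28 and 1.53 in Hom livers, so the order of these genes turned: Dcn exceeded Bgn in every WT liver and Bgn exceeded Dcn in every Hom liver. As a share of the summed TPM of the 3 proteoglycans, Dcn was 60.1% ± 2.90 in WT and 38.7% ± 2.31 in Hom livers, Bgn 37.4% ± 2.63 and 53.0% ± 1.98, and Lum 2.56% ± 0.457 and 8.31% ± 0.603 (SD, n = 3 mice each).

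**Figure D2:**
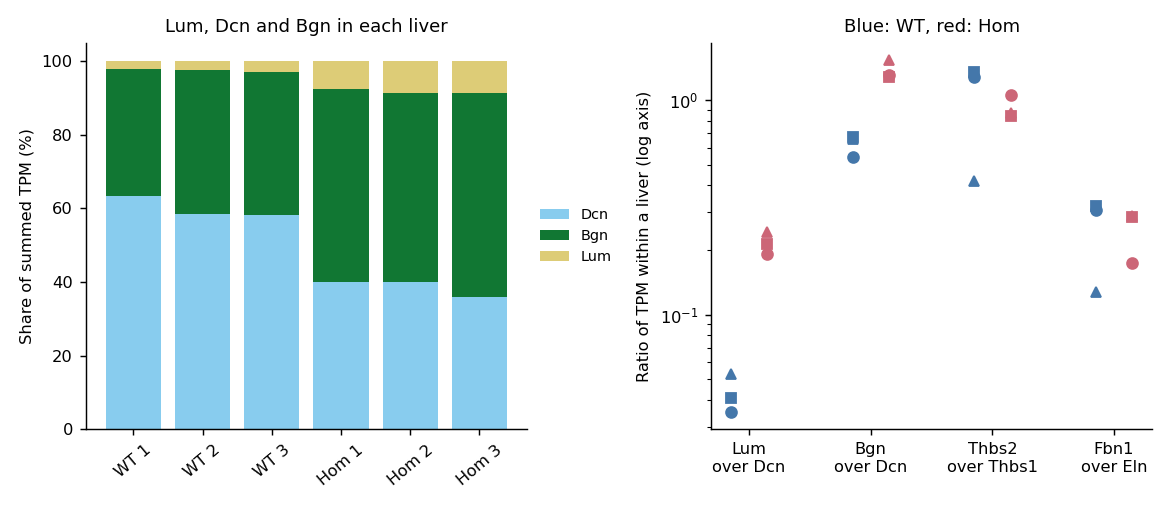
Left: share of Dcn, Bgn and Lum in their summed TPM (%) in each liver, stacked to the whole. Right: ratio of TPM between pairs of genes within each liver on a log axis (circle, square and triangle are replicates 1, 2 and 3); Lum over Dcn and Bgn over Dcn separate WT (blue) from Hom (red), and Thbs2 over Thbs1 and Fbn1 over Eln overlap, with WT replicate 3 lowest in both.

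The 2 elastic fibre genes were both higher in Hom livers, with a smaller error for Fbn1 than for Eln. Fibrillin-1 is the main structural protein of microfibrils, which also hold latent TGF-beta. Fbn1 (chromosome 2) was at 3.74, 3.91 and 4.79 CPM in the WT livers and at 11.0, 13.8 and 16.1 CPM in the Hom livers, from 61 to 78 and from 236 to 374 counts. Every Hom liver was more than 2 times above the highest WT liver, and the log2 fold change was 1.72 (SE 0.19, edgeR adjusted p = 9.90e-04).

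Elastin forms the extensible core of elastic fibres. Eln (chromosome 5) was at 4.30, 4.30 and 13.5 CPM in the WT livers and at 22.3, 17.1 and 20.1 CPM in the Hom livers. WT replicate 3, the liver with high epidermal genes, was 3.14 times the mean of the other WT livers, and it still lay under every Hom liver. The log2 fold change was 1.43 (SE 0.44, edgeR adjusted p = 0.0378). It was 2.20 without WT replicate 3 (adjusted p = 0.00123), and 1.15 to 1.52 when any other liver was left out, with adjusted p values of 0.072 to 0.108 that no longer passed the threshold.

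Fibronectin was the most abundant of the 10 genes in both groups, and its groups overlapped. Fn1 (chromosome 1) was at 1762, 2095 and 1695 CPM in the WT livers and at 2102, 1301 and 1565 CPM in the Hom livers. Hom replicate 1 was marginally above the highest WT liver and the other Hom livers were lower than every WT liver. The log2 fold change was -0.16 (SE 0.21, edgeR adjusted p = 0.568). Its sign rests on the scaling: it was 0.28 (adjusted p = 0.203) with libraries scaled by their totals alone, and relative to the median of all tested genes the values under the 2 scalings were -0.16 and -0.17. It was 0.44 with limma on log2(TPM + 0.1), which passed the threshold (adjusted p = 0.0466), where the median of all genes was 0.61. Counts per gene cannot separate the plasma form of fibronectin from the cellular forms that hold the extra exons. The paper measured fibronectin in WT and Hom livers by qPCR and western blot, among several fibrosis genes. It reports a marked rise of various fibrotic molecules in Hom livers. Those measurements were not compared with the counts here.

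Among the matricellular genes, SPARC, a collagen-binding glycoprotein that assists procollagen processing, was the most abundant. Sparc (chromosome 11) was at 70.1, 56.4 and 68.9 CPM in the WT livers and at 134, 132 and 165 CPM in the Hom livers. The groups lay well apart, at 65.1 ± 7.55 and 143 ± 18.3 CPM (SD, n = 3 mice each), a log2 fold change of 1.14 (SE 0.13, edgeR adjusted p = 0.00113).

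Thrombospondins are secreted glycoproteins that bind CD36 and CD47, and thrombospondin-1 can activate latent TGF-beta, which thrombospondin-2 does not. Thbs2 (chromosome 17) was at 2.79, 3.14 and 2.21 CPM in the WT livers and at 10.6, 11.3 and 11.4 CPM in the Hom livers. Its Hom values were tightly grouped, 4.09-fold above WT in the means, with a log2 fold change of 2.03 (SE 0.17, edgeR adjusted p = 4.62e-04). Thbs1 (chromosome 2) was at 2.18, 2.31 and 5.22 CPM in the WT livers and at 9.94, 13.2 and 13.0 CPM in the Hom livers. Here too WT replicate 3 was the high WT liver, 2.33 times the mean of the others, and the log2 fold change was 1.90 (SE 0.35, edgeR adjusted p = 0.00592) with it and 2.42 without it. The 2 thrombospondins had similar mean levels per length in both groups, but with a wide spread in WT livers. Thbs1 made up 52.3% ± 15.8 of their summed TPM in WT and 52.2% ± 3.09 in Hom livers (SD, n = 3 mice each). Its share was 70.5% in WT replicate 3, 43.9% and 42.4% in the other WT livers and 48.6%, 54.3% and 53.5% in Hom livers. With all livers, the ratio of Thbs2 to Thbs1 did not separate the groups (exact two-sided permutation test, p = 1.0). Without WT replicate 3, the Thbs1 share of every WT liver lay under that of every Hom liver. That difference was not tested.

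Tenascin-C, a hexameric glycoprotein that is scarce in healthy adult tissue and appears at sites of injury, was the least expressed in Hom livers per length. Tnc (chromosome 4) was at 1.73, 1.92 and 5.04 CPM in the WT livers and at 5.83, 6.02 and 5.56 CPM in the Hom livers. The Hom livers were close together and all above WT, but WT replicate 3 nearly reached them. With all 6 livers the log2 fold change was 1.00 (SE 0.40) and did not pass the threshold (edgeR adjusted p = 0.0842). Without WT replicate 3 it was 1.66 (adjusted p = 0.00370), and without any other single liver it was 0.73 to 1.03 (adjusted p from 0.146 to 0.218). The adjusted p from DESeq2 with all livers was 0.0449.

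Eln, Tnc and Thbs1 were the 3 members more than 2 times as high in WT replicate 3 as in the mean of the other WT livers, which held for 3.86% of all tested genes. In Hom replicate 1, the Hom liver with the highest epidermal sum, Eln was the highest of the Hom livers, Tnc was intermediate and Thbs1 was the lowest. Without WT replicate 3 and Hom replicate 1 together, the log2 fold changes were 2.11 for Eln, 1.66 for Tnc and 2.54 for Thbs1. Some other matrix genes were also highest in WT replicate 3 among WT livers and some were not (all named after their values were seen). Those given here are examples and do not show the share of matrix genes on either side. Aggrecan (Acan) was at 7.31 CPM there against 0.391 and 0.641, and chondroadherin (Chad) at 8.48 against 2.57 and 1.99. Hapln1 was at 4.05 CPM there against 1.28 and 5.13, and osteomodulin (Omd) at 3.81 against 1.40 and 5.00. The part of the epidermal and other transcripts in the levels of Eln, Tnc and Thbs1 was not tested. Lum, Fbn1 and Thbs2, at comparable levels in WT livers, were not raised beyond 2 times in that liver.

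**Figure D3:**
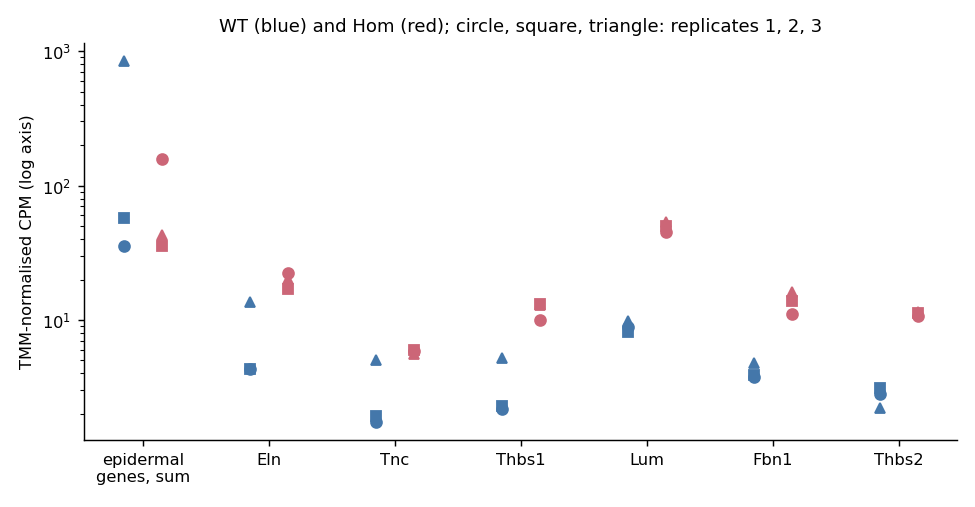
Summed level of the 10 epidermal genes and levels of 6 matrix genes (TMM-normalised CPM, log axis) in each WT (blue) and Hom (red) liver. WT replicate 3 (blue triangle) is at 848 CPM for the epidermal sum and above the other WT livers for Eln, Tnc and Thbs1, and it is the lowest WT liver for Thbs2.

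In order of level per length, WT livers held Fn1 (344 ± 40.4 TPM), Dcn (152 ± 43.2), Bgn (93.1 ± 14.5), Sparc (45.8 ± 9.78), Lum (6.33 ± 0.897) and Eln (2.96 ± 1.93 TPM; SD, n = 3 mice each). No neighbours in this part of the order overlapped in their single livers. The 4 scarcest, Thbs1, Tnc, Thbs2 and Fbn1, had means between 0.607 and 0.787 TPM and overlapped with their neighbours. In Hom livers the order was Fn1 (468 ± 80.0 TPM), Bgn (346 ± 32.3), Dcn (252 ± 19.2), Sparc (155 ± 24.7), Lum (54.4 ± 7.90) and Eln (12.6 ± 0.867), again without overlap, and the 4 scarcest lay between 2.20 and 4.64 TPM. Fn1 alone made up 53.4% ± 4.21 of the summed TPM of the 10 genes in WT and 35.9% ± 5.75 in Hom livers. TPM values are not corrected for library composition, so their ratio between groups exceeds that of the CPM values (8.60 for Lum in TPM, 5.58 in CPM), and levels are compared here by ratios within a liver. The fit of log2(TPM + 0.1) with limma, which does compare groups, serves only as an alternative.

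**Figure D4:**
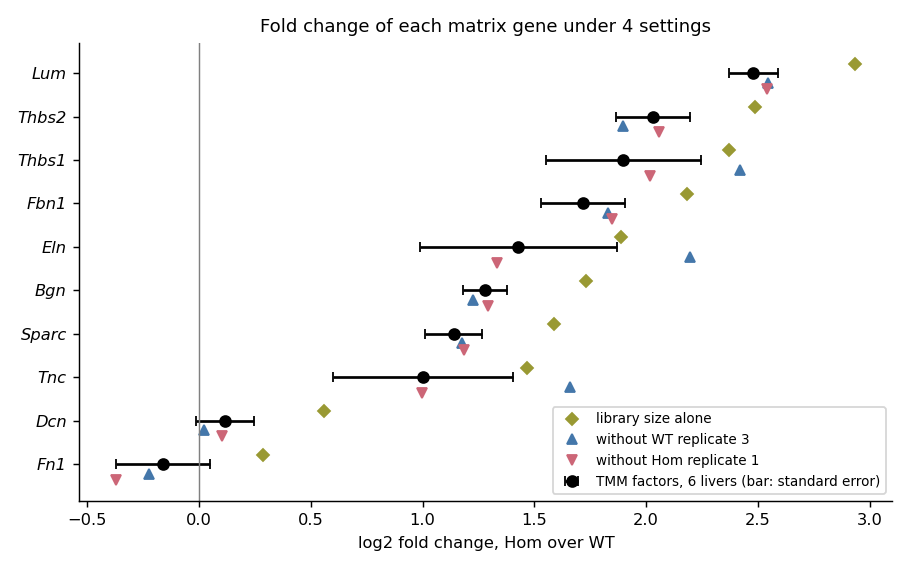
Log2 fold change of each gene, Hom over WT, with all 6 livers and TMM factors (black, with the standard error), with library size alone, without WT replicate 3 and without Hom replicate 1. Lum, Thbs2, Thbs1, Fbn1, Eln, Bgn and Sparc stay above 1 in all 4 settings. Eln and Tnc move most without WT replicate 3, and Fn1 changes sign with the scaling.

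The other noncollagen matrix genes were read from hand-written lists without the 10 members. Together the 4 lists held 74 genes, of which 55 were tested, and 27 of these were higher and 3 lower in Hom livers (49.1% and 5.45%), with a median log2 fold change of 0.61. Over all tested genes 21.5% were higher and 20.1% lower.

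Genes of elastic fibres and microfibrils were the list with most members higher: 12 of 14 tested genes were higher, none was lower, and the median log2 fold change was 1.43. Ltbp2, a latent TGF-beta binding protein family member found on microfibrils, was at 1.00, 0.577 and 1.04 CPM in WT livers and at 13.9, 14.1 and 13.9 CPM in Hom livers (log2 fold change 3.98, SE 0.22, adjusted p = 1.59e-04). Fbn2, the fibrillin typical of developing tissue, was near 0 in WT livers (0.0558, 0 and 0.430 CPM) and at 1.77, 2.35 and 2.97 CPM in Hom livers (adjusted p = 0.00859). Mfap4, a microfibril-associated protein, had a log2 fold change of 2.28 (adjusted p = 8.69e-04). Emilin2 (-0.15) and Ltbp4 (0.08) did not pass the test (edgeR adjusted p = 0.807 and 0.644).

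Of the other small leucine-rich proteoglycans, 1 of 8 tested genes was higher, none was lower and the median log2 fold change was 0.09, a share under that of all genes. The gene was Prelp, which anchors basement membranes to connective tissue, with a log2 fold change of 0.63 (edgeR adjusted p = 0.00569). It was at 108, 101 and 84.6 CPM in WT livers and at 146, 146 and 164 CPM in Hom livers. Among large and other proteoglycans 3 of 9 tested genes were higher and none was lower: Vcan (versican, log2 fold change 2.55, adjusted p = 0.0218), Agrn (agrin, 1.09, adjusted p = 0.00269) and Hspg2 (perlecan, 0.54, adjusted p = 0.0321). Vcan was at 0.922 CPM or less in every WT liver and at 2.06 to 2.67 CPM in the Hom livers. Its log2 fold change was 2.06 without WT replicate 2 and 3.95 without WT replicate 3. The calls of Vcan and Hspg2 were lost when some single livers were left out, so that 1 gene was higher without Hom replicate 3. In this list 2 genes were lower without Hom replicate 1, with or without WT replicate 3, and 1 was lower with DESeq2.

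Of 24 tested matricellular and adhesive glycoproteins, 11 were higher and 3 lower, with a median log2 fold change of 0.64. The higher genes included Spp1 (osteopontin, an integrin ligand), at 57.4, 43.2 and 29.3 CPM in WT livers and at 520, 534 and 733 CPM in Hom livers (log2 fold change 3.78, adjusted p = 3.69e-04). Spon1 (spondin-1) had a log2 fold change of 3.96 (adjusted p = 1.93e-04), and Ccn5, a member of the CCN family of matricellular proteins, was at 0.553 CPM or less in every WT liver and at 6.07, 20.7 and 9.57 CPM in Hom livers (adjusted p = 0.00181). Smoc2, a relative of SPARC and the protein-coding neighbour of Thbs2 on chromosome 17, was at 6.37, 5.90 and 7.68 CPM in WT livers and at 75.9, 58.3 and 47.9 CPM in Hom livers (log2 fold change 3.19, adjusted p = 2.24e-04; named after its values were seen). The 3 lower genes, likewise named after their values were seen, were Ecm1, Ccn6 and Smoc1 (log2 fold changes -2.30, -2.53 and -0.38).

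**Figure D5:**
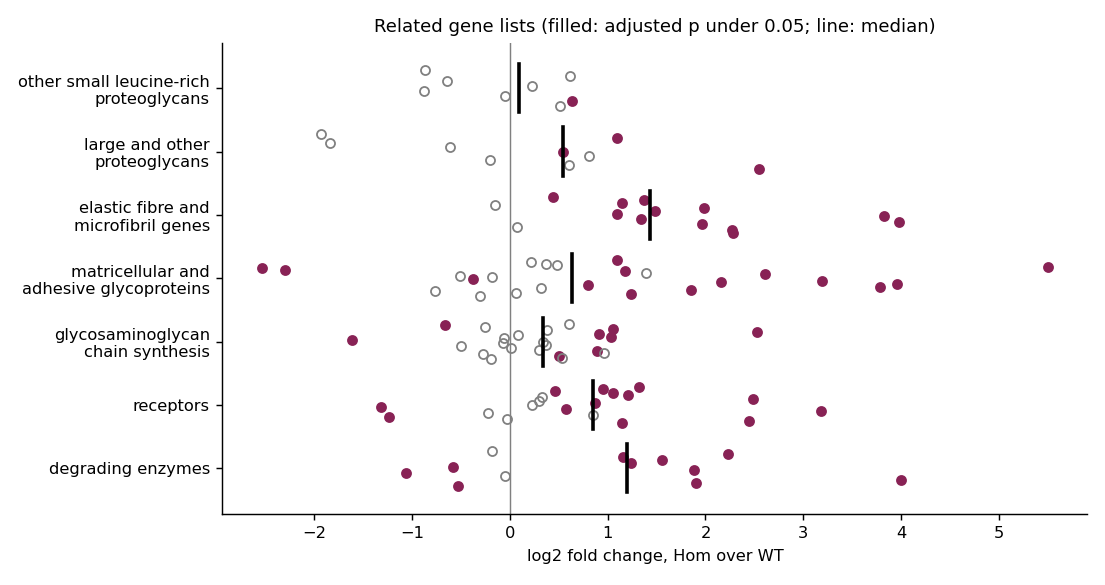
Log2 fold change, Hom over WT, of each tested gene in 7 lists related to the 10 genes, which are left out (filled points: adjusted p under 0.05; open points: not; vertical bars: list medians; points are spread vertically for sight only). The medians run from 0.09 for the other small leucine-rich proteoglycans to 1.43 for elastic fibre and microfibril genes.

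Genes that build, bind and cut these molecules were read in the same way. Of 23 tested genes of glycosaminoglycan chain synthesis, 6 were higher and 2 lower (median log2 fold change 0.34). The share higher was near the 21.5% of all tested genes, and the share lower was under their 20.1%. Chst11, which sulfates chondroitin at the 4 position, was higher (2.53, adjusted p = 8.71e-04), as was the chondroitin polymerizing factor Chpf (1.05, adjusted p = 0.00199), and the chondroitin 6-sulfotransferase Chst3 was lower (-1.61, adjusted p = 0.00310, edgeR). Scaling by library totals alone gave 10 higher and 1 lower in that list, and 3 were higher without WT replicate 2 or without Hom replicate 2. Of 19 receptors, 11 were higher and 2 lower (median 0.85). Itgb6, an integrin chain of epithelia (3.19), Itga8, an integrin chain of stellate cells (2.49), and Tlr2, the biglycan receptor (2.45), had the largest log2 fold changes, with adjusted p = 9.13e-04, 6.46e-04 and 0.00417. The thrombospondin receptors Cd36 (1.32, adjusted p = 5.35e-04) and Cd47 (0.46, adjusted p = 0.0101) were also higher, and syndecan-4 (Sdc4, -1.23) and Itgb3 (-1.32) were lower (these 4 named after their values were seen). Of 12 tested degrading enzymes, 7 were higher and 3 lower (median 1.20), with log2 fold changes of 4.00 for the plasminogen activator Plat, 1.91 for Plau and 2.23 for the proteoglycan-cleaving protease Adamts15 (adjusted p = 1.83e-04, 0.00249 and 0.00143). Scaled by library totals alone, 16 receptors were higher and 1 lower, and 8 degrading enzymes were higher and 1 lower.

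Markers of the cells a liver sample holds were measured beside these genes. Stellate cell and myofibroblast markers moved with the members: 11 of 17 tested were higher and 1 lower, and the summed level of the list was 245 to 268 CPM in WT and 639 to 752 CPM in Hom livers. Col1a1 (log2 fold change 3.32), Timp1 (3.32), Col1a2 (2.61) and Col3a1 (2.29) were higher with adjusted p from 2.00e-04 to 0.00206. Col1a1 was at 12.25 to 20.22 CPM in WT and at 140.3 to 161.4 CPM in Hom livers. Col1a2 was at 13.02 to 24.33 and 104.1 to 116.9 CPM, and Col3a1 at 23.41 to 34.9 and 115 to 176.3 CPM. These collagen genes encode matrix themselves, and much of the rise of the summed level lies in them. Lrat, a marker of quiescent stellate cells (-0.22, adjusted p = 0.447), and the stellate cell marker Des (0.42, adjusted p = 0.0838) did not pass the test. Reln was lower (-1.55) and Cygb, also a marker of quiescent stellate cells, was higher (1.80, adjusted p = 4.98e-04). These 4 were named after their values were seen. The part of stromal cell number in the members' levels was not tested.

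Cholangiocyte markers, of the bile duct epithelium, were higher for 10 of 11 genes (median log2 fold change 2.82), from a sum of 44.8 to 51.5 CPM in WT to 187 to 216 CPM in Hom livers, with Prom1 (4.78), Tspan8 (4.54) and Cftr (4.20) among them. Hepatocyte markers were lower for 6 of 14 genes and higher for none (median -0.38): Cyp2e1 (-2.95), Ttr (-1.85) and Alb (-1.26) were lower, and Ahsg was at -0.14 (adjusted p = 0.655). The list summed to 167300 to 201800 CPM in WT and 88390 to 132600 CPM in Hom livers. Without Hom replicate 3, 3 of these markers were lower. Endothelial markers were lower for 6 of 12 genes (median -0.53), led by Clec4g (-2.13), Kdr (-1.48) and Ptprb (-1.03), with Eng at -0.24 (adjusted p = 0.116). Scaled by library totals alone, the hepatocyte list had 1 gene higher and 3 lower (median 0.08), and the endothelial list 2 higher and 3 lower (median -0.08).

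Macrophage markers split, with 5 of 13 higher, 2 lower and a median log2 fold change of 0.48. Cx3cr1 (4.75), Trem2 (3.31), Ccr2 (3.19) and Lyz2 (1.30) were higher, the Kupffer cell genes Timd4 (-2.38, adjusted p = 0.0126) and Clec4f (-1.58, adjusted p = 0.0271) were lower (both named after their values were seen), and Csf1r was at 0.48 (adjusted p = 0.328). The list summed to 597, 262 and 244 CPM in the WT livers and to 374 to 503 CPM in the Hom livers, so that WT replicate 1 alone lay above the Hom livers and the others lay under them. Without WT replicate 1, 7 markers were higher and 1 lower, with a median of 1.05, and without WT replicate 2, Hom replicate 2 or Hom replicate 3, 3 were higher. Platelets carry much of the thrombospondin-1 of blood, and platelet genes were therefore read beside Thbs1. Of 8 listed, 4 were tested. Pf4 was higher (1.47, adjusted p = 0.0214) and Itga2b was at -1.14 (adjusted p = 0.0526). None of the list was higher without WT replicate 1, WT replicate 2, Hom replicate 1 or Hom replicate 3. In some settings, such as DESeq2 and without WT replicate 3, 1 was lower. The summed levels, 5.26 to 9.49 CPM in WT and 5.52 to 7.23 CPM in Hom livers, overlapped. The part of these cells in the members' levels was not tested.

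Some members share genome positions with other transcripts. In GRCm38, Fbn1, Eln, Fn1, Tnc and Thbs1 each have exons that overlap those of 1 gene on the opposite strand, and Lum, Dcn, Bgn, Sparc and Thbs2 have none. Whether the counting used strand is not given in the sources used here, so reads of the overlapping genes cannot be told apart from those of these 5 members where they overlap.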

How the data were processed

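Total RNA of 6 mouse livers, 3 WT and 3 Hom, was extracted with Trizol and sequenced on the DNBSEQ platform. The submitters' processing notes name HISAT2 2.0.4, Bowtie2 2.2.5, RSEM 1.2.12 and the build mm9; annotation and strandedness are not given in the sources used here. The authors deposited, per gene and liver, estimated counts (expected counts, not scaled between livers; 65.88% are whole numbers), TPM values and FPKM values. The authors made the TPM values by dividing by gene length, with the same total per liver. The FPKM values were made by the authors per length and library size; they were used here only for the gene length of the length correction. The 6 deposited group means were not used, because their names are crossed for all 17975 genes.

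Counts were rounded to whole numbers. The test was edgeR 4.0.16's quasi-likelihood test (R 4.3.3) of 3 Hom against 3 WT livers, on the 13805 genes that filterByExpr retained. Library sizes were multiplied by TMM factors of 0.806 to 0.924 (WT) and 1.09 to 1.23 (Hom). Benjamini-Hochberg adjustment ran over all tested genes, with calls under 0.05. The p-values measure the spread between single mice. Single values and ratios were compared by exact two-sided permutation tests over livers. Procedures were tested on simulated data. Alternatives were DESeq2 1.42.0, limma 3.58.1 on log2(TPM + 0.1), other scalings and filters, a loess correction for gene length, the replicate number as a block, and leaving livers out. Leaving out WT replicate 3 and Hom replicate 1 together was chosen after seeing the data.

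The 10 genes and the lists were chosen with earlier results of these data known. Named from each list were the 3 called genes with the largest absolute log2 fold change among those with a mean of at least 1 CPM; from each marker list also the 2 with the highest mean; and from the platelet list Pf4 and Itga2b. A gene that this rule names is not reported here. Chromosomes and neighbours are from GRCm38, and no coordinates were converted from mm9.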

Additional observations from a re-analysis of the deposited data

How the results depend on the processing

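Over 16 alternatives, between 6 and 10 of the 10 genes were higher and none was lower. Lum, Bgn, Fbn1, Sparc, Thbs1 and Thbs2 passed the threshold in every one. The 10 genes' median log2 fold change, 1.35 with TMM factors, was 1.81 with library size alone, 2.03 with limma on log2(TPM + 0.1), 1.80 without both WT replicate 3 and Hom replicate 1, and 1.22 to 1.74 when each liver was left out in turn, highest without WT replicate 3. The first 2 settings moved the median of all genes to 0.45 and 0.61, so that 91.1% and 95.1% of called genes were higher, against 51.7%. Under them Dcn passed the threshold (0.56 and 0.76, adjusted p = 0.0293 and 0.0117), Tnc did so too (1.47 and 1.66, adjusted p = 0.0186 and 0.00503), and the sign reversed for Fn1 (0.28 and 0.44, the latter with an adjusted p of 0.0466), Ahsg (0.31 and 0.47) and Eng (0.21 and 0.39). After the gene length correction Eln had an adjusted p of 0.0503. For the other matrix genes the number lower was 5 without both WT replicate 3 and Hom replicate 1, and 2 to 5 when each liver was left out, 5 of them without Hom replicate 1. The WT and Hom livers are different mice that share only a number (correlations of deviations -0.0786, -0.0394 and -0.0176). With the replicate block, 7 of the 10 genes were higher, the median was 1.45, and 2383 genes were higher and 2214 lower over the whole table. Of 160 comparisons of the 10 genes' values with alternatives, 145 kept direction and call. The causes of these changes were not tested. With 3 livers a group, the smallest exact p is 0.1, and the 3 least counted genes, Tnc, Thbs2 and Thbs1, had 30 to 85 counts per WT liver.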
